A study of Drosophila melanogaster with 24 samples.

Results

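The cytochrome P450 genes are the rows of the count table whose symbol starts with Cyp, a family number and a subfamily letter. There were 82 of them among the 16995 genes listed. Their counts came from single brains of adult mated *tau*-KO *Drosophila melanogaster*, in 8 groups of 3 libraries: females and males, each as uninjured control and at 1, 2 and 4 h post-TBI. Injury was a single full-body strike with a spring-driven high impact trauma device, which shakes the whole fly and not the head alone. All 8 groups, controls included, carried the *tau* deletion, so none of the comparisons here speaks of flies with Tau. The flies were of 1 knockout stock.

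P450 enzymes are heme proteins that insert an oxygen atom into small lipophilic molecules. In flies, some make or break down hormones such as ecdysone, some build the hydrocarbons of the cuticle, and many others clear plant compounds and insecticides. Insect P450 genes are grouped by sequence into the CYP2, CYP3, CYP4 and mitochondrial clans. The mitochondrial and CYP2 clans hold most of the known hormone enzymes, and the CYP3 and CYP4 clans hold most of the detoxification enzymes. Microsomal P450s take electrons from a reductase and mitochondrial ones from a ferredoxin. By family number, 37 of the 82 genes belonged to the CYP3 clan, 32 to the CYP4 clan, 9 to the mitochondrial clan and 4 to the CYP2 clan.

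P450 transcripts made up 0.166% of the counts in genes, 33046 of 19947845 over the 24 libraries. The level of a gene is given as CPM, its count scaled to a common library size with TMM factors. A 3′ library holds about 1 tag per transcript, so levels were not divided by gene length. Summed over the 82 genes, the level ran from 1098 CPM in male control 1 to 2867 CPM in male control 2, with a median of 1491 CPM. The CYP3 clan held 51.3 to 70.0% of this sum, the CYP4 clan 11.7 to 28.1%, the CYP2 clan 5.89 to 16.4% and the mitochondrial clan 4.24 to 11.9%. The CYP3 clan thus led in every library, and the CYP4 clan reached its highest sum, 807 CPM, in male control 2.

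**Figure D1:**
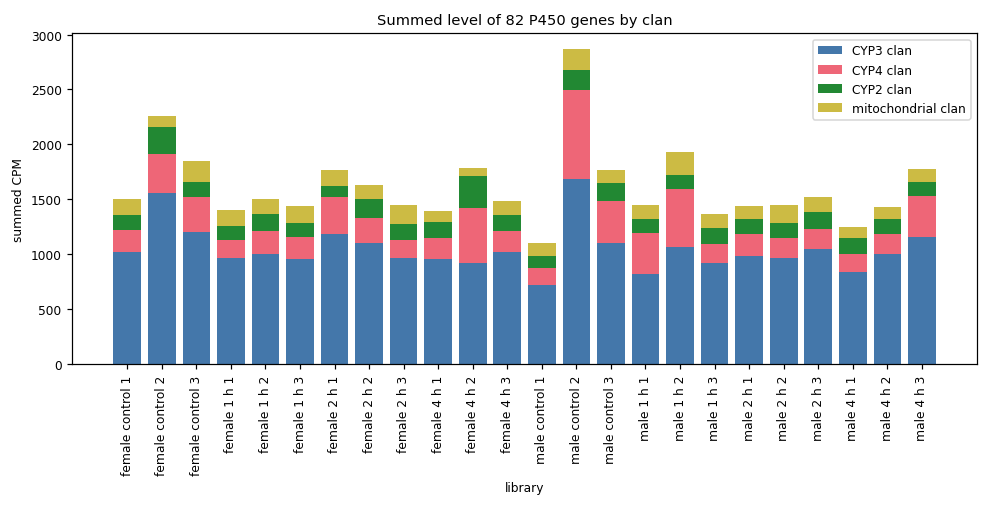
Summed level of the 82 P450 genes in each library (y axis, CPM with TMM factors), stacked by clan, with 1 bar for each of the 24 libraries. Male control 2 stands highest at 2867 CPM and male control 1, the shallowest library, lowest at 1098 CPM.

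The libraries held 117416 (male control 1) to 1880528 (male 1 h 2) reads counted in genes, and their median was 772916.5. At this depth 28 to 52 of the 82 genes had a count in a library, and 16 had one in all 24. In markers of other tissues, male control 2 and male 1 h 2 were unlike the remaining 22 libraries. Markers of the retrocerebral complex, the glands that release adipokinetic and juvenile hormone (*Akh*, *jhamt*), summed to 4511 CPM in male control 2 and 19.6 CPM in male 1 h 2, against 136 to 760 CPM in the other libraries. Muscle markers were at 272 and 297 CPM in these 2 libraries against 2577 to 3872 CPM, gut markers at 11.3 and 32.2 CPM against 435 to 1497 CPM, and neuron markers at 999 and 1152 CPM against 1816 to 3175 CPM. Photoreceptor markers reached 16830 CPM in male 1 h 2, against 2485 to 9438 CPM in the other 22. Female control 2 held 5925 CPM of antenna markers and 22825 CPM of fat body markers. All 7 neuron markers were detected in every library and 6 or 7 of the 7 glia markers. All 7 muscle and 8 or 9 of 9 photoreceptor markers were detected as well. Over the 22 libraries the median sum was 2720 CPM for neuron, 1905 CPM for glia, 3339 CPM for muscle, 7314 CPM for fat body and 7631 CPM for photoreceptor markers. Of the markers for other tissues, the oenocyte genes *eloF* and *CheB42a*, the gut gene *mex1* and the Malpighian tubule gene *Uro* were at 0 in every library. Other genes of the gut and oenocyte lists had counts, among them *Jon65Aiii* and *Desat1*. Over the 22 libraries the median sum was 802.5 CPM for gut and 668 CPM for oenocyte markers. *Uro* was the only 1 of the 3 listed Malpighian tubule markers found in the count table. In whole brains, fewer cells of a type and less RNA per cell cannot be told apart, and this holds for every level below.

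The 8 genes of highest mean level held 53.7% of all P450 counts, and *Cyp6d5*, of the CYP3 clan, alone held 19.6%. *Cyp6d5* ranged from 162 to 607 CPM over the 24 libraries, with a median of 311.98 CPM. It was the most abundant P450 gene in each of the 24 libraries, and it was not called in any comparison. *Cyp9h1* followed with a mean of 118 CPM (20.7 to 201 CPM). *Cyp4g15*, of the subfamily that makes cuticular hydrocarbons, averaged 94.3 CPM but had a median of only 64.3 CPM, with its highest levels in male control 2 (342 CPM) and female 4 h 2 (216 CPM). *Cyp28d1*, which is inducible by nicotine, averaged 87.2 CPM with a narrow range of 37.0 to 149 CPM. *Cyp18a1*, the hydroxylase that inactivates ecdysone, averaged 76.1 CPM (25.1 to 126 CPM), and *Cyp12a4*, a mitochondrial P450 known from lufenuron resistance, averaged 75.5 CPM (37.2 to 111 CPM). *Cyp305a1* averaged 74.9 CPM (21.6 to 233 CPM) and *Cyp317a1* 68.9 CPM (0.807 to 141 CPM). *Cyp317a1* was nearly lost in male control 2, where it had 1 count, and low in male 1 h 2 at 5.46 CPM and in female 4 h 2 at 5.32 CPM. *Cyp309a1* was also lowest in male control 2, at 3.23 CPM against a median of 72.7 CPM.

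**Figure D2:**
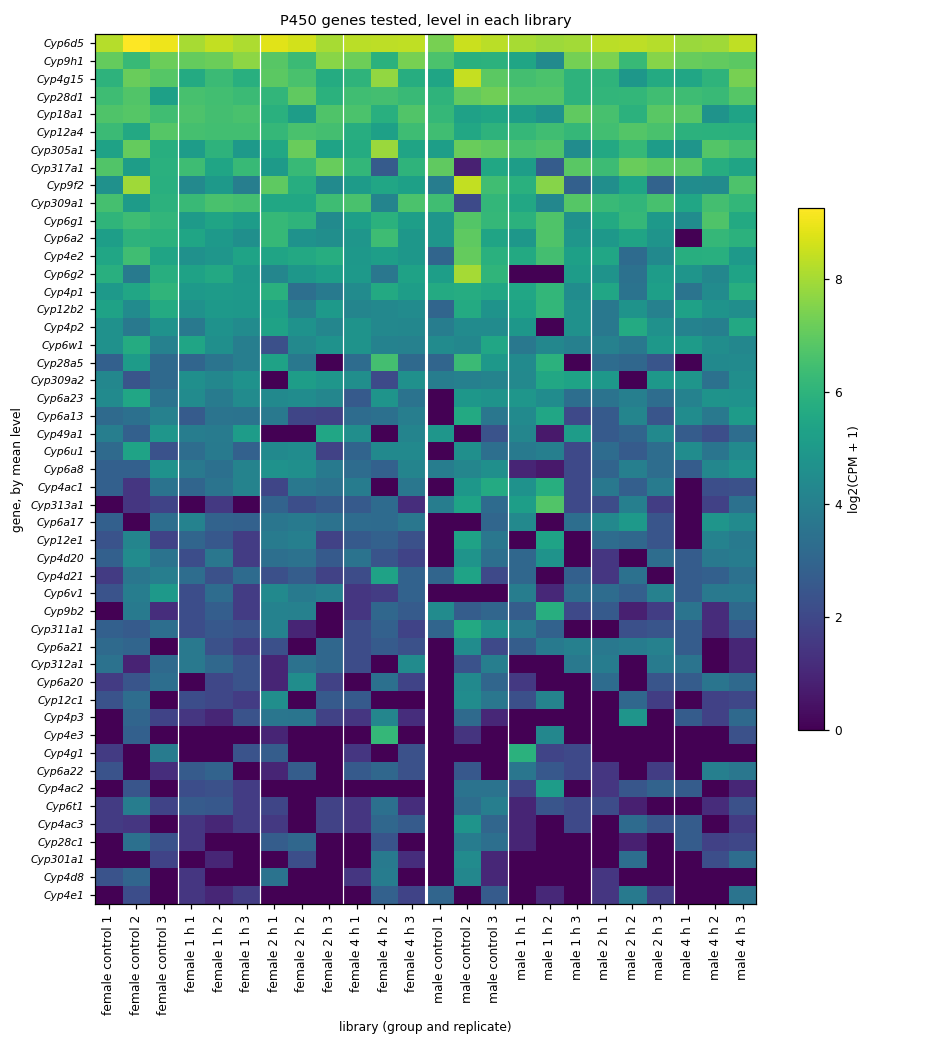
Level of each of the 49 tested P450 genes (rows, by mean level) in each of the 24 libraries (columns), as log2(CPM + 1) on the colour scale. *Cyp6d5* leads the rows, and the dark cells of the lower rows are libraries with 0 counts, up to 22 of the 49 in male control 1.

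A test needed 5 or more counts in 3 or more libraries, and 49 of the 82 genes met this, which is 59.8% against 46.3% of all listed genes. Another 16 had 1 to 61 counts in all and were not tested, and 17 had 0 counts in every library (20.7%, against 33.1% of all listed genes). The 49 tested genes include some that passed this filter only through a group in which they were high. The 17 were *Cyp12d1-d*, *Cyp12d1-p*, *Cyp304a1*, *Cyp310a1*, *Cyp313a2* to *Cyp313a5*, *Cyp4ad1*, *Cyp4d2*, *Cyp4d14*, *Cyp6a9*, *Cyp6a16*, *Cyp6a18*, *Cyp6d2*, *Cyp6t3* and *Cyp9c1*. Whether a count of 0 came from an absent transcript or from the way reads were counted was not tested. *Cyp12d1-d* and *Cyp12d1-p*, which are inducible by insecticides, are near-identical copies, and reads that fit both places equally would not have been counted. In a later annotation, not the one used for counting, *Cyp4d2*, *Cyp4d14* and *Cyp9c1* lie with 98.7, 97.2 and 98.2% of their exons under exons of the opposite strand. Of 129 listed genes with at least 90% of their exons so placed, 114 (88.4%) were at 0 in all libraries.

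P450 genes lie in arrays left by gene duplication, and in some of these the counts of neighbours differed widely. There were 15 arrays of adjacent P450 genes with 43 members, and 34 of the 82 genes lay on chromosome arm 2R, 15 on 3R, 14 on X, 13 on 2L and 6 on 3L. The largest array, on 2R, held 9 genes. In it *Cyp317a1* had 1056 counts over the 24 libraries, *Cyp6a23* 404, *Cyp6a8* 254, *Cyp6a17* 208, *Cyp6a21* 140, *Cyp6a20* 114, *Cyp6a22* 87, *Cyp6a19* 8 and *Cyp6a9* 0. The adjacent pair *Cyp28d1* and *Cyp28d2* had 1788 and 18 counts, and *Cyp12a4* and *Cyp12a5* had 1430 and 13. Other neighbours were closer, such as *Cyp6g1* and *Cyp6g2* with 1249 and 789 counts, and some arrays held only genes at 0. Neighbours were not compared with P450 genes that lie apart.

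The first question was whether P450 genes changed after TBI in each sex. By edgeR's quasi-likelihood test, a gene counts as called when |log2 FC| is over 1 and the unadjusted p is below 0.05. The adjusted p is given beside the values. No P450 gene, and no gene at all, reached an adjusted p under 0.05 in any of the 12 comparisons, nor did a P450 gene with DESeq2 or limma voom. *Cyp6g2* did in males at 1 h when low genes were not filtered out or male 1 h 3 was left out. *Cyp9f2* did in males at 2 h when low genes were not filtered out. Cases of these genes in other comparisons are given in the closing section. The 3 control libraries of a sex served all 3 of its time points, so these comparisons are not independent of each other. In females, 1 of the 49 tested P450 genes was called at 1 h, 0 at 2 h and 1 at 4 h. Over all 7865 tested genes the shares called were 1.44, 2.16 and 1.42%. At 2 h in females 0 P450 genes had an unadjusted p under 0.05, while DESeq2 gave 0 calls and limma voom gave 1. In males, 9 P450 genes were called at 1 h (18.4% of those tested, against 4.64% of all genes), 8 at 2 h (16.3% against 7.26%) and 4 at 4 h (8.16% against 3.92%). Most of the male calls were lower after injury: 7 at 1 h, 7 at 2 h and 3 at 4 h, where 2.64, 5.42 and 2.56% of all genes were called lower. The calls in the other direction were 2, 1 and 1, against 2, 1.84 and 1.36% of all genes. The excess of lower calls rested on male control 2. With that library left out the calls were 3 higher and 2 lower at 1 h, 1 higher and 0 lower at 2 h, and 2 higher and 1 lower at 4 h. The total at 2 h thus fell from 8 to 1. These remaining calls are too few to show a direction, and the shares of all genes under this setting are not given here.

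The median log2 FC of the 49 genes was −0.46, −0.12 and −0.20 in females at 1, 2 and 4 h, against −0.06, −0.02 and 0.02 over all tested genes. In males it was −0.18, −0.83 and −0.29, against 0.02, −0.02 and −0.05. A negative log2 FC was found for 33, 28 and 29 of the 49 genes at the 3 female time points, compared with 53.6, 51.6 and 48.1% of all genes. For males these values were 31, 33 and 33, compared with 48.9, 50.8 and 52.5%. By clan, the CYP4 genes had a median of −1.46 in males at 2 h (17 tested), the mitochondrial ones −0.98 (6 tested), the CYP3 ones −0.78 (24 tested) and the CYP2 ones −0.04 (2 tested). The libraries of the 2 groups did not overlap for 3, 2 and 2 P450 genes in females at 1, 2 and 4 h and for 6, 6 and 3 in males. The same held for 10.4, 5.33 and 6.10% of all tested genes in females and 3.85, 9.74 and 6.79% in males.

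**Figure D3:**
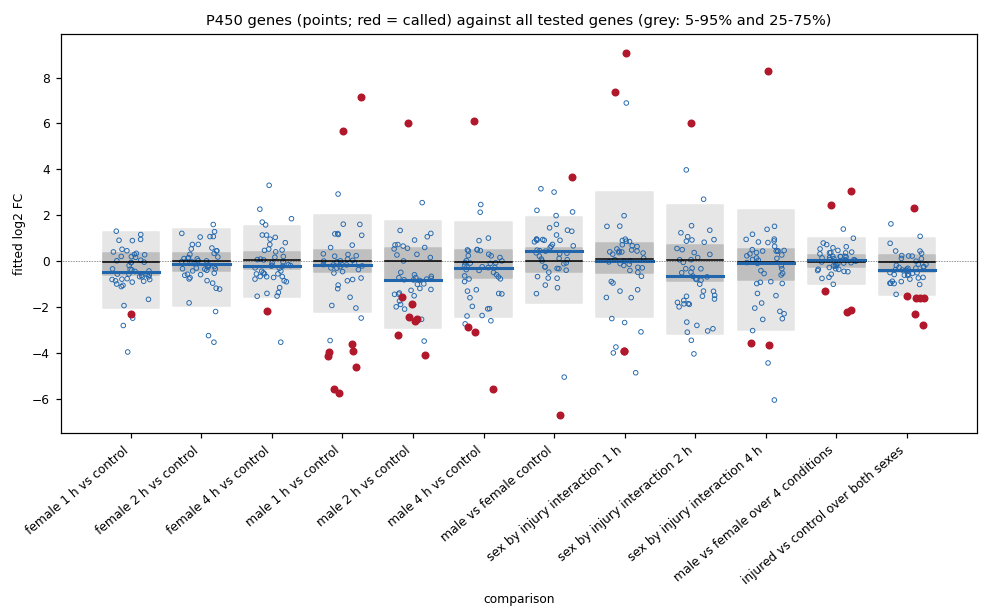
Fitted log2 FC (y axis) of the 49 tested P450 genes (points, called genes filled red) in each of the 12 comparisons (x axis), with the range of all 7865 tested genes in grey (5 to 95% and 25 to 75%) and the medians of P450 genes (blue) and all genes (black) as lines. The blue median lies lowest in males at 2 h, at −0.83, and most red points of the male comparisons lie below 0.

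*Cyp6v1*, a CYP3 gene of the X chromosome, was the 1 P450 gene called higher in males at all 3 times. It had 0 counts in each of the 3 male controls. A count of 0 there allows up to 21.1 CPM in male control 1, 2.42 CPM in male control 2 and 3.15 CPM in male control 3, so the shallow first control could not have shown the levels seen after injury. At 1 h the male libraries stood at 14, 1.09 and 9.24 CPM, at 2 h at 8.65, 6.04 and 15.7 CPM, and at 4 h at 5.45, 12.4 and 12.8 CPM. All 9 injured male libraries thus had counts, 20, 20 and 24 in all at the 3 times, although 1 of them had a single count. Against a floor of 3 counts over the 3 controls, this was at least 4.82-fold higher at 1 h, 6.63-fold at 2 h and 9.29-fold at 4 h (edgeR adjusted p = 0.995, 0.640 and 0.962). Such floors and the intervals below cover counting error only. In females the controls were not low: *Cyp6v1* stood at 4.13, 14 and 30.4 CPM. Females at 1 h had 3.55, 8.70 and 2.10 CPM, at 2 h 19.8, 13.0 and 15.2 CPM, and at 4 h 1.74, 2.13 and 6.59 CPM. The female groups overlapped, and at 4 h the gene was called lower (log2 FC −2.17 ± 1.05, SE, adjusted p = 1.00), a call that was lost without female control 2, female control 3, female 4 h 1 or female 4 h 2. Uninjured males had at least 13.4-fold less than uninjured females against the same floor (adjusted p = 1.00). This bound pools the depth of the 3 male controls. Male control 1 alone allowed up to 21.1 CPM, above the 4.13 and 14 CPM of female controls 1 and 2. Each call in males, and that between the control groups, held under every alternative fit and with each library left out. An antisense RNA, *asRNA:CR45466*, lies over 18.4% of the exons of *Cyp6v1* on the opposite strand, and no source used here states whether strand was used in counting.

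The change of *Cyp6v1* after injury was called different between the sexes at each time. These tests share the same male and female controls and are not independent of each other. The log2 FC in males exceeded that in females by 7.36 ± 1.88 at 1 h, 6.03 ± 1.82 at 2 h and 8.29 ± 1.90 at 4 h (edgeR interaction, SE, adjusted p = 1.00 each). These fitted values rest on controls at 0 and on the prior count of the fit, and give no fold. Of the 49 genes, 4 were called in the interaction at 1 h, 1 at 2 h and 3 at 4 h, where 3.04, 3.65 and 3.05% of all tested genes were called.

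*Cyp6a8*, a gene inducible by caffeine and barbiturates and high in some DDT-resistant strains, was the P450 gene of lowest p in males at 1 h. The male controls stood at 14.1, 17.8 and 23.1 CPM and the 3 libraries at 1 h at 0.936, 0.546 and 3.08 CPM, with 1 count each. The groups did not overlap. With 3 counts against 46, the ratio was 0.0472 (95% exact interval 0.00939 to 0.147), and the fitted log2 FC was −3.92 ± 0.98 (SE, edgeR adjusted p = 0.840). At 2 h the males stood at 6.92, 15.1 and 8.97 CPM and at 4 h at 5.45, 18.6 and 25.5 CPM, both overlapping the controls, and neither was called. In females *Cyp6a8* had 12.5 ± 10.9 CPM in controls (SD, n = 3), 13.0 ± 3.58 at 1 h, 20.5 ± 6.83 at 2 h and 10.7 ± 5.65 at 4 h. The difference between the sexes at 1 h was −3.95 ± 1.25 (SE, adjusted p = 1.00). The male call at 1 h and this difference held under every alternative and with each library left out. *Cyp6a2*, its relative with similar inducers, stood at 28.2, 123 and 40.9 CPM in male controls and 29.0, 102 and 27.7 CPM at 1 h, and was not called.

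**Figure D4:**
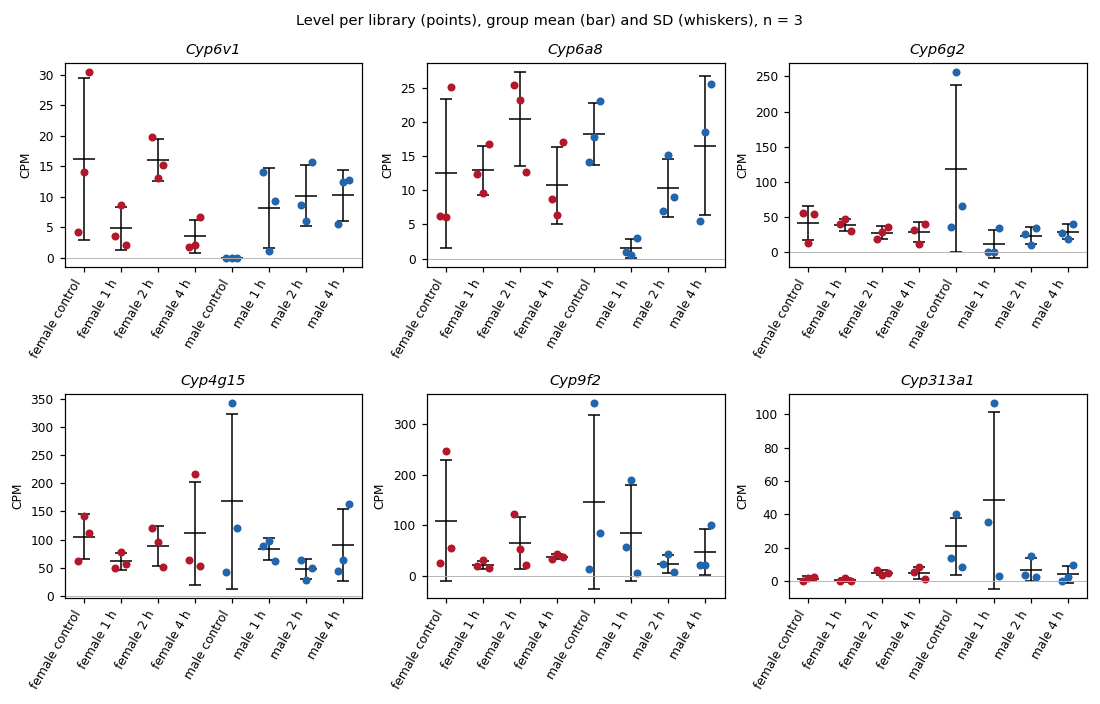
Level (y axis, CPM) of *Cyp6v1*, *Cyp6a8*, *Cyp6g2*, *Cyp4g15*, *Cyp9f2* and *Cyp313a1* in each library (points, red for females and blue for males) of the 8 groups (x axis), with the group mean (bar) and SD (whiskers, n = 3). *Cyp6v1* is at 0 in all 3 male controls, *Cyp6a8* lies under 4 CPM in all 3 males at 1 h, and the male control group of *Cyp6g2*, *Cyp4g15* and *Cyp9f2* is spread by 1 library at 256, 342 and 341 CPM.

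*Cyp6g2* lies beside *Cyp6g1*, and its transcript is known from the corpus allatum, the gland of the retrocerebral complex that makes juvenile hormone. Male controls stood at 35.2, 256 and 65.1 CPM, and male control 2 held 40.2% of all *Cyp6g2* counts. At 1 h, 2 of the 3 male libraries had 0 counts and the other stood at 33.9 CPM, and at 2 h the libraries stood at 25.9, 9.82 and 33.6 CPM. Neither time overlapped the controls, and the gene was called lower at both (log2 FC −3.98 ± 1.17 and −2.44 ± 1.03, SE, adjusted p = 0.995 and 0.640). The gap was narrow, 35.2 CPM against 33.9 and 33.6 CPM. That lowest control was 5 counts in male control 1, the shallowest library. Males at 4 h, at 27.3, 18.6 and 40.2 CPM, overlapped the controls and were not called. When male control 2 was left out the value at 2 h was −1.21 and no longer called, and without both male control 2 and male 1 h 2 that at 1 h was −1.93 and not called. Of the 2 retrocerebral markers, *Akh* stood at 4382 CPM in male control 2 and at 4.91 CPM in male 1 h 2, the highest and the lowest of all libraries. *jhamt*, the marker of the corpus allatum, was also highest in male control 2, at 129 CPM, but in male 1 h 2, where *Cyp6g2* was at 0, it stood at 14.7 CPM, its next highest level. In male 1 h 1, the other library with 0 counts of *Cyp6g2*, the 2 markers summed to 205 CPM, and their part in the result was not tested. In females the gene ranged from 11.7 to 55.8 CPM over the 12 libraries and was not called. The difference between the sexes at 1 h was −3.91 ± 1.52 (SE, adjusted p = 1.00). *Cyp6g1*, which confers resistance to DDT and neonicotinoids when high, stood at 28.2, 107 and 70.3 CPM in male controls and was not called at any time.

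Of the remaining calls in males at 2 h, all 6 genes stood highest among male controls in male control 2. *Cyp4g15* stood at 42.2, 342 and 121 CPM in male controls and at 64.0, 28.7 and 49.3 CPM at 2 h (log2 FC −1.89 ± 0.63, SE, adjusted p = 0.640). *Cyp9f2* stood at 14.1, 341 and 84.0 CPM in male controls and at 22.5, 42.3 and 6.73 CPM at 2 h (log2 FC −2.60 ± 1.06). In both, the lowest control lay below injured libraries. *Cyp4e2* had 7.04, 133 and 57.7 CPM in male controls against 43.2, 8.31 and 20.2 CPM (log2 FC −1.59 ± 0.64), and *Cyp28a5* had 7.04, 78.3 and 29.4 CPM against 8.65, 7.55 and 4.49 CPM (log2 FC −2.52 ± 1.21). *Cyp311a1* did not overlap, with 7.04, 47.6 and 24.1 CPM in male controls and 0, 3.78 and 4.49 CPM at 2 h (log2 FC −3.24 ± 1.27). *Cyp28c1* had 26 counts in the controls and 1 at 2 h, a ratio of 0.0382 (95% exact interval 0.000932 to 0.233). Leaving out male control 2 gave these 6 genes a log2 FC between −3.53 and −0.68, all still negative, and none was called. Single libraries at 2 h decided calls too: the comparison had 3 calls without male 2 h 1, 8 without male 2 h 2 and 5 without male 2 h 3. *Cyp9f2* and *Cyp28c1* were lost without male 2 h 1 or 3, *Cyp6g2* without male 2 h 1 or 2, *Cyp4e2* without male 2 h 2 or 3 and *Cyp311a1* without male 2 h 1. *Cyp28a5* was lost without any of these 3 libraries or male control 3.

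At 1 h in males, a further 5 genes were called lower, all with few counts. *Cyp301a1*, needed for the cuticle, was at 0 after 27 counts in controls (at least 12.4-fold lower). *Cyp4d8* was at 0 against 24 (at least 11.1-fold lower). *Cyp4p3* was at 0 against 11 (at least 5.07-fold lower, adjusted p = 0.995 for each of the 3). Of the control counts of *Cyp301a1*, 26 were in male control 2, as were 23 of *Cyp4d8* and 10 of *Cyp4p3*, and male control 1 was at 0 for all 5 genes, so that the groups overlapped. *Cyp28c1* had 1 count against 26 (ratio 0.0278, interval 0.000679 to 0.169). *Cyp6a20*, a gene known from male aggression, had 2 against 32 (ratio 0.0452, interval 0.00525 to 0.177, adjusted p = 0.999). None of these 5 was called once male control 2, or male 1 h 2, was left out, and the count for the comparison was then 5. Without male 1 h 1 *Cyp4d8* and *Cyp4p3*, and without male 1 h 3 *Cyp28c1* and *Cyp6a20*, were not called.

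*Cyp4g1*, the decarbonylase that makes cuticular hydrocarbons in oenocytes, was called higher in males at 1 h, and this was 1 library. Male 1 h 1 had 63 counts (59.0 CPM) of the 92 counted in all 24 libraries. Male 1 h 2 and 3 had 5 and 1, and male controls and males at 2 and 4 h had 0. Against the floor this was at least 16.6-fold higher (adjusted p = 0.995), and without male 1 h 1 the gene was not called. Of the 5 oenocyte markers, 1 was detected in that library, *Desat1* at 542 CPM, a desaturase gene that many tissues express, and the other 4 were at 0. In females *Cyp4g1* had 0 to 10 counts in a library. The difference between the sexes at 1 h was 9.09 ± 3.2 (SE, adjusted p = 1.00), a fitted value on groups at 0. *Cyp308a1* had the same kind of pattern with 48 of its 61 counts in female control 2 and was not tested.

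At 4 h in males *Cyp4ac1*, *Cyp311a1* and *Cyp4d8* were called lower. *Cyp4ac1* stood at 0, 29.1 and 49.3 CPM in male controls and at 0, 3.71 and 3.93 CPM at 4 h (log2 FC −3.11 ± 1.21, SE, adjusted p = 0.962), so that both groups held a library at 0. It was not called without male control 3. *Cyp311a1* stood at 5.45, 1.24 and 4.91 CPM at 4 h, below all 3 controls (log2 FC −2.89 ± 1.28, adjusted p = 0.962), and was not called once any of male control 2, male 4 h 2 and male 4 h 3 was left out. *Cyp4d8* had 0 counts at 4 h against 24, at least 6.89-fold lower (adjusted p = 0.962), with 23 of the 24 in male control 2, and was not called without that library or any of the 3 at 4 h. For *Cyp4ac1* the male minus female difference of the change was −3.57 ± 1.65 at 4 h (SE, adjusted p = 1.00), with females at 13.9, 0 and 11.9 CPM at 4 h and 6.20, 1.75 and 10.6 CPM in controls.

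In females the other call was *Cyp9f2* at 1 h. The libraries stood at 19.5, 30.0 and 14.7 CPM, against 24.8, 246 and 55.5 CPM in controls (log2 FC −2.33 ± 1.06, SE, adjusted p = 1.00). The highest control was female control 2, and without it, or without any of the 3 libraries at 1 h, the gene was not called. Antenna and fat body markers were highest of all libraries in that control, and their part in the result was not tested. *Cyp6d5* stood at 293, 607 and 516 CPM in female controls and at 265, 334 and 279 CPM at 1 h (log2 FC −0.69 ± 0.32, adjusted p = 1.00). It had an unadjusted p of 0.0416, but its |log2 FC| was under 1 and it was not called.

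**Figure D5:**
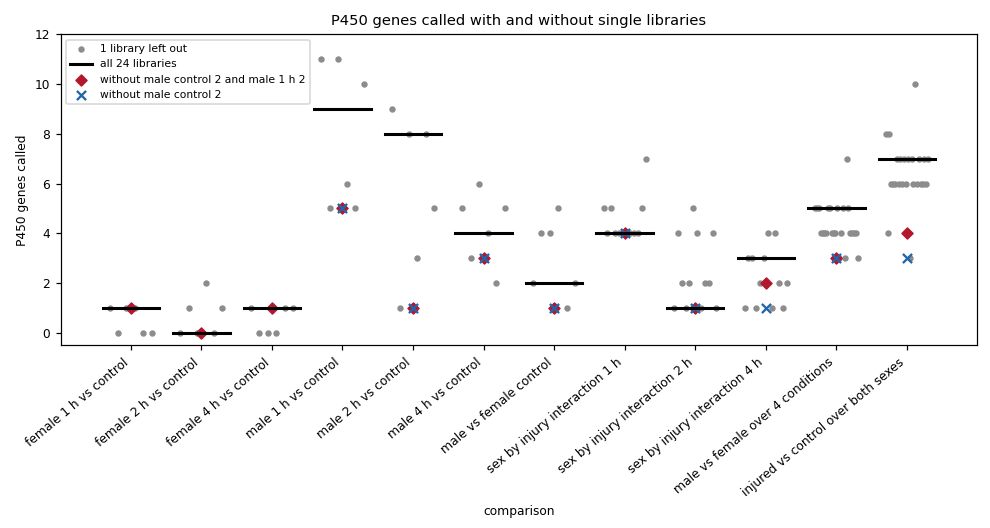
Number of the tested P450 genes called (y axis) in each of the 12 comparisons (x axis) with all 24 libraries (black lines), with 1 library left out in turn (grey points), without male control 2 (blue crosses, comparisons that use it) and without male control 2 and male 1 h 2 (red diamonds). The count for males at 2 h falls from 8 to 1 without male control 2, and that for males at 1 h from 9 to 5.

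The second question was whether P450 genes differed between the sexes before injury and over all 4 conditions. Between the control groups, 2 of the 49 genes were called, against 3.03% of all tested genes: *Cyp6v1*, given above, and *Cyp313a1*, of the CYP4 clan, which was higher in males. *Cyp313a1* stood at 14.1, 40.4 and 8.40 CPM in male controls and 0, 1.75 and 2.65 CPM in female controls. The groups did not overlap, which held for 3 P450 genes and for 5.59% of all genes (60 against 4 counts, log2 FC 3.64 ± 1.23, SE, adjusted p = 1.00). With male control 2 left out the log2 FC was 2.59 and not called. After injury, males stood at 35.6, 106 and 3.08 CPM at 1 h, 3.46, 15.1 and 2.24 CPM at 2 h and 0, 2.47 and 9.82 CPM at 4 h. Females stood between 0 and 8.51 CPM in every library. The highest male level was in male 1 h 2, which held 54.2% of the counts of the gene. Females at 1 h stood at 0, 1.93 and 0 CPM, all below the males at that time, while the sexes overlapped at 2 and 4 h. At 4 h the change after injury in males was 3.66 lower on the log2 scale than in females (SE 1.68, adjusted p = 1.00).

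Averaged over the 4 conditions, 5 of the 49 genes were called between the sexes, against 3.03% of all tested genes. The 2 higher in males stood beside 1.37% of all genes and the 3 lower beside 1.65%. *Cyp313a1* was higher in males (log2 FC 2.44 ± 0.60, SE, adjusted p = 1.00), with a median of 9.11 CPM over 12 male and 2.29 CPM over 12 female libraries. *Cyp4ac2*, a CYP4 gene beside *Cyp4ac1*, was also higher in males (3.05 ± 0.92). It was at 0 in 8 of 12 female libraries and 3 of 12 male libraries, and 55.4% of its counts were in male 1 h 2. Both calls held under all 30 alternatives, each library left out in turn included. However, neither gene had 5 or more counts in 3 female libraries. Both thus met the filter only through male libraries, the sex in which they were higher. *Cyp6v1* (−1.30 ± 0.54), *Cyp4d8* (−2.22 ± 1.03) and *Cyp4g1* (−2.14 ± 1.01) were called lower in males. These last calls were lost under 7, 14 and 18 of the 30 alternatives, and *Cyp4g1* turned its sign under another one. The mean level of *Cyp4g1* went the other way, at 5.40 CPM in males and 2.57 CPM in females, with 59.0 CPM in male 1 h 1. *Cyp4d21*, known as *sxe1* and needed in males for mating, ranged from 0 to 40.4 CPM and was not called between the sexes (log2 FC −0.22 ± 0.62, adjusted p = 1.00).

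Averaged over both sexes and the 3 times, 7 of the 49 genes were called between injured and control brains, against 5.20% of all tested genes. *Cyp6v1* was higher after injury (log2 FC 2.32 ± 0.82, SE, adjusted p = 0.595), where 0.674% of all genes were called higher, and 6 genes were lower, where 4.53% were. This average of *Cyp6v1* joins unlike fitted changes. Males were called higher at each time against controls with 0 counts, and females had a log2 FC of −1.67, −0.03 and −2.17 at 1, 2 and 4 h. *Cyp6g2* had a median of 29.1 CPM over the 18 injured and 55 CPM over the 6 control libraries (log2 FC −1.62 ± 0.54), and *Cyp9f2* 31.5 and 69.8 CPM (−1.60 ± 0.53). *Cyp28c1* (−2.32 ± 0.82) had counts in 4 of 6 control and 9 of 18 injured libraries, and *Cyp4d8* (−2.79 ± 0.97) in 4 of 6 and 5 of 18. *Cyp311a1* (−1.60 ± 0.64) and *Cyp6t1* (−1.52 ± 0.73) were the other calls, with adjusted p from 0.595 to 0.743 over the 6 genes. With male control 2 alone left out, 3 genes were called in place of 7, with 2 higher and 1 lower. *Cyp28c1* kept its call there (log2 FC −2.05) but lost it without female control 2. *Cyp9f2* was lost without either of these libraries. *Cyp311a1* was lost without male control 2 or female control 3, and *Cyp6t1* without any 1 of 15 libraries.

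Genes with roles in hormones and behaviour that were not called are given by their values. *Cyp18a1* averaged 99.1 ± 14.1, 95.5 ± 6.17, 65.3 ± 35.5 and 86.3 ± 26.2 CPM in female controls and at 1, 2 and 4 h (SD, n = 3). In males it averaged 50.1 ± 17.7, 62.0 ± 55.9, 90.4 ± 27.8 and 60.2 ± 47.5 CPM. Male and female controls did not overlap for *Cyp18a1* (log2 FC −1.05 ± 0.58, SE, adjusted p = 1.00), but the gene was not called. *Cyp6a17*, known from temperature preference, had 0, 0 and 7.35 CPM in male controls and 19.0, 30.2 and 4.49 CPM in males at 2 h, which overlapped (log2 FC 2.54 ± 1.40, adjusted p = 0.645). *Cyp49a1*, a mitochondrial P450, ranged from 0 to 43.1 CPM within groups. *Cyp303a1*, needed for sensory bristles, had 13 of its 16 counts in male control 2 and was not tested.

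P450 enzymes work with electron donors, and genes for these and for related pathways were described beside them. Of the 6 steroid hormone P450 genes with names of their own (*spo*, *spok*, *phm*, *dib*, *sad*, *shd*), only *phm*, for a hydroxylase of ecdysone synthesis, was tested. It had 0 to 22 counts in a library and was not called. Of the 6 tested genes for redox partners, 1 was called higher in males at 1 h and 2 lower in males at 2 h, where 2% of all genes were called higher and 5.42% lower. Of the male control counts, 243 of 342 for *Cpr* and 8 of 12 for *dare* were in male control 2. *Cpr*, the reductase of microsomal P450s, stood at 42.2, 196 and 97.6 CPM in male controls and 41.5, 36.3 and 13.5 CPM in males at 2 h, without overlap (log2 FC −1.91 ± 0.75, SE, adjusted p = 0.640). *dare*, the adrenodoxin reductase that serves mitochondrial P450s, had 0 counts against 12 in the same comparison, at least 4.02-fold lower (adjusted p = 0.640). *Fdx1*, a ferredoxin, was called higher in males at 1 h (122 against 8 counts, log2 FC 3.0 ± 1.40, adjusted p = 0.999), with 87 of the 122 in male 1 h 2, and higher over both sexes after injury (2.17 ± 0.93, adjusted p = 0.703).

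Of 9 juvenile hormone genes tested, 2 were called lower in females at 2 h, 1 in females at 4 h, and 2, 2 and 1 in males at 1, 2 and 4 h. The shares of all tested genes called were 2.16 and 1.42% in these female comparisons, and 2.64, 5.42 and 2.56% were called lower in the male ones. *jhamt*, the methyltransferase of juvenile hormone synthesis, stood at 7.04, 129 and 7.35 CPM in male controls and had 0 counts in all 3 males at 2 h, at least 56.3-fold lower (edgeR adjusted p = 0.640). In females it stood at 6.20, 5.26 and 9.26 CPM in controls and had 0 counts at 2 h, at least 5.67-fold lower (adjusted p = 1.00). Neither pair of groups overlapped, and 160 of the 168 male control counts were in male control 2. *jhamt* was also called lower in males at 1 h (log2 FC −2.76 ± 1.33) and 4 h (−3.24 ± 1.42). *Jheh1*, an epoxide hydrolase that breaks down juvenile hormone, was called lower in males at 2 h (log2 FC −1.24 ± 0.50, adjusted p = 0.640). Its counts in male controls 1, 2 and 3 were 9, 218 and 82. *Jhedup* was called lower in females at 2 and 4 h and males at 1 h, but all 145 of its female control counts were in female control 2, the library high in antenna markers, of which *Jhedup* is 1. Of 8 regulators of detoxification genes, none was called in an injury comparison, and 0 had an unadjusted p under 0.05 in the 6 injury comparisons. Over the 4 conditions 2 of them were called higher in males (adjusted p = 1.00), where 1.37% of all tested genes were. These were *Keap1*, the repressor of the Cnc factor (2.27 ± 0.90), and *tgo*, the partner of bHLH-PAS factors (1.03 ± 0.49). *Keap1* had 24 counts in male 2 h 2 and 15 in male 1 h 2, against 0 to 8 in the other male libraries. Of the 17 *Ugt* genes, whose enzymes conjugate products of P450s, 5 were tested. *Ugt35b* (−1.93 ± 0.83) and *Ugt86Dd* (−2.53 ± 1.06) were called lower in males at 2 h (adjusted p = 0.640), and *Ugt35b* also at 4 h (−1.85 ± 0.83). Of all tested genes, 5.42 and 2.56% were called lower in males at 2 and 4 h. *Ugt86Dd* had 0, 166 and 37 counts in male controls 1, 2 and 3 and 0 in male 2 h 2, so that the groups overlapped. Of the *Ugt35b* counts in male controls, 891 of 1108 were in male control 2.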

How the data were processed

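RNA of single brains was made into QuantSeq 3′ libraries. The deposited values are counts of reads per gene, which the authors obtained with CASAVA 1.8.2, STAR 2.4 alignment to dm3 and HTSeq, without normalization. Annotation version and strand setting are not given in the sources used here. Reads at more than 1 place (12.2 to 32.2% per library), ambiguous reads (6.06 to 8.71%) and reads in no feature (1.74 to 7.19%) stayed out of library sizes. The deposited fold changes, average log CPM, likelihood ratios, p-values and FDR of the authors' edgeR 3.22.3 comparisons were not used.

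Genes with at least 5 counts in at least 3 libraries were fitted in 1 model of 8 groups with edgeR 4.0.16 (TMM factors from the tested genes, robust quasi-likelihood F-test, R 4.3.3), and p-values were adjusted by Benjamini and Hochberg over 7865 genes. The call (|log2 FC| over 1 and an unadjusted p below 0.05) follows the study's legends, while its methods name an FDR under 0.05. The SE is |log2 FC| divided by the square root of F. The study calls the 3 libraries of a group biological replicates. Where a group had 0 counts, the fold is a bound against 3 counts for the whole group. Ratios on 1 to 3 counts carry an exact 95% interval. Depth ran from 117416 to 1880528 counts.

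Genes were named by rule: up to 4 called genes of lowest p per direction and comparison, the 8 of highest mean level, those with over 60% of at least 20 counts in 1 library, a list of known roles, and called genes of the related lists. Further called genes and *Cyp309a1*, *Cyp28d2* and *Cyp12a5* were named after their values were seen. The P450 genes, the rule and the lists (steroid hormone P450 genes, redox partners, regulators, juvenile hormone genes, *Ugt* genes, tissue markers) were chosen with earlier results of these data known. A later annotation (BDGP6, 82 of 82 genes matched) served for names, arms, neighbours and overlaps only. Alternatives were RLE size factors, DESeq2 1.42.0, no filter, limma 3.58.1 voom with quality weights, a replicate block, CPM without TMM factors, leaving out male control 2 and male 1 h 2, and leaving out each library. The fit was tested on simulated data with the same spread for all genes, in which only genes of higher counts were changed. That test does not cover genes of few counts or libraries unlike the others of their group. Tables and plots used Python 3.11.15, pandas 2.3.3, numpy 2.4.6 and matplotlib 3.10.9.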

Additional observations from a re-analysis of the deposited data

Results flagged for a closer look

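In 8 tests the change after injury was called different between males and females for a P450 gene. A call was an unadjusted p under 0.05 with a difference over 1 on the log2 scale (edgeR, log2 FC in males minus that in females). The shares called at 1, 2 and 4 h were 8.16, 2.04 and 6.12% of the 49 P450 genes, against 3.04, 3.65 and 3.05% of all tested genes. At 1 h these were *Cyp6v1* with 7.36, *Cyp6a8* with −3.95, *Cyp4g1* with 9.09 and *Cyp6g2* with −3.91. At 2 h it was *Cyp6v1* with 6.03. At 4 h these were *Cyp6v1* with 8.29, *Cyp313a1* with −3.66 and *Cyp4ac1* with −3.57. The adjusted p was 1.00 for each. *Cyp6v1* and *Cyp6a8* kept the call under all 18 alternatives run for each difference. *Cyp4g1* lost it without male 1 h 1 or female control 3, *Cyp6g2* without male control 2, *Cyp313a1* under 10 and *Cyp4ac1* under 9 of the 18.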

How the results depend on the processing

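The count of P450 genes called moved by over 1.5 times under these settings. With limma voom it was 0 in females at 1 h and at 4 h, 1 in females at 2 h, 5 in males at 1 h, 5 between control groups, 8 in the interaction at 2 h, 2 between the sexes over 4 conditions and 4 between injured and control brains. With DESeq2 it was 4 between control groups, 3 in the interaction at 2 h and 3 between the sexes over 4 conditions. With RLE size factors it was 2 in the interaction at 2 h. With no filter it was 1 in females at 2 h, 6 between control groups, 5 in the interaction at 2 h and 6 in that at 4 h. Without male control 2 and male 1 h 2 it was 5 and 1 in males at 1 and 2 h, 1 between control groups, 3 between the sexes over 4 conditions and 4 between injured and control brains. With a replicate block it was 0 in females at 4 h and 2 in the interaction at 2 h, and 6 of 45 single calls were lost: *Cyp9f2* in females at 1 h, *Cyp6v1* in females at 4 h, *Cyp6a20* in males at 1 h, *Cyp313a1* in the interaction at 4 h, *Cyp4g1* between the sexes over 4 conditions and *Cyp6t1* between injured and control brains. No source states that equal replicate numbers pair libraries, and 15 of 24 libraries correlated best with a library of their own number (median r 0.15 over 84 pairs of equal number, 52 of them over 0.1, and −0.10 over 168 pairs of unequal number). The cause of these shifts was not tested.

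With each library left out in turn, the count for females ran from 0 to 1, 0 to 2 and 0 to 1 at the 3 times, and the count for males from 5 to 11, 1 to 9 and 2 to 6. It ran from 1 to 5 between control groups, from 4 to 7, 1 to 5 and 1 to 4 in the interactions, from 3 to 7 between the sexes over 4 conditions and from 3 to 10 between injured and control brains. Leaving out male control 2 alone gave the lowest count in males at 2 h, between control groups and between injured and control brains. It tied with male 1 h 2 in males at 1 h, with 3 other libraries in each interaction at 2 and 4 h, and with male 1 h 2 and male 4 h 3 between the sexes over 4 conditions.

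For 45 results of single genes, 622 of 804 alternative fits kept the call, 181 lost it and 1 turned its sign: *Cyp4g1* between the sexes over 4 conditions, at 0.0277 with limma voom. Adjusted p fell under 0.05 with no filter for *Cyp6g2* in males at 1 h (0.00298), *Cyp9f2* in males at 2 h (0.0190), and both between injured and control brains (0.0142 and 0.000350). It did so for *Cyp6g2* without male 1 h 3 in males at 1 h (0.00137), in the interaction (0.00867) and between injured and control brains (0.0138). The median summed P450 level was 1518 CPM without TMM factors. Depth limits genes of a few CPM most in male control 1, where 3 counts are 21.1 CPM.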
